A study of Mus musculus with 3 samples.

Results

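Collagen chain genes encode the alpha chains from which collagen trimers are built. Of 23238 gene symbols in the deposited counts, 45 had the form Col, number, a, number, and 44 of these were collagen chains. The remaining symbol, Col4a3bp, belongs to a ceramide transport protein and was left out. Of the 44 chain genes, 28 reached a CPM of 1, where CPM is the count scaled to library size, in at least 1 library, and 24 did so in all 3 libraries. The cells were c2c12, immortalized myoblasts of the mouse, after 2 days in myogenic induction medium with horse serum. They grew on TCP (tissue culture plate), on GelMA, a hydrogel of 15% methacrylated gelatin, or on GelMA-PSS, the same hydrogel mixed with 1% poly sodium 4-styrenesulfonate (PSS), a heparin-mimicking sulfonated polymer. Each substrate has 1 library, so replicate error is unknown and p-values are not given. The intervals given are at 95% and cover counting error only.

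Per kilobase of transcript, Col3a1, Col1a2 and Col5a2, all fibrillar chains, led the collagen mRNAs in every library. Col13a1 and Col25a1, which encode collagens that span the plasma membrane, were more than 2-fold lower in GelMA-PSS than in both GelMA and TCP on the scale of log2(CPM + 1). Among all genes tested, 1.16% were lower by this rule. No collagen chain gene was more than 2-fold higher in GelMA-PSS than in both, where 1.37% of all genes were. Col2a1, the cartilage fibril collagen, stood at a CPM of 6.51 in GelMA against 0.11 in TCP and 0.01 in GelMA-PSS.

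Collagen chains fold 3 at a time into a triple helix, which requires a glycine at every 3 residues because only glycine fits the centre of the helix. Fibrillar collagens form the banded fibres of connective tissue, type IV collagens form the sheet-like network of the basement membrane around muscle fibres, and FACIT collagens sit on fibril surfaces. Beaded filament collagen VI links the basement membrane of muscle to the surrounding matrix, and mutations in its genes cause muscle disease. Gelatin, the base of the hydrogels, is denatured collagen protein.

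The counts summed to 119799095 in TCP, 87071144 in GelMA and 192171443 in GelMA-PSS. At these depths 3 counts correspond to a CPM of 0.0246, 0.0330 and 0.0166, and a gene at 0 counts can lie anywhere up to that level. All 8 markers of myoblasts and myotubes reached a CPM of 1, with summed CPM of 22091 in TCP, 16657 in GelMA and 13494 in GelMA-PSS. Without Myh3, the embryonic myosin of myotubes, the sum was 11909.5, 10301.5 and 10457.4, so GelMA-PSS was no longer lowest. Of 6 endothelial markers none reached a CPM of 1, and of 4 macrophage and blood markers only Cd68 did, with Ptprc at 0, 0 and 4 counts and Adgre1 at 0, 1 and 0. Of 7 fibroblast markers 5 reached a CPM of 1, led by Dcn, a small proteoglycan that binds collagen fibrils, while Thy1 and Tcf21 had at most 2 counts in any library. The summed CPM of the fibroblast list was 215 in TCP, 217 in GelMA and 273 in GelMA-PSS, nearly all of it Dcn, and without Dcn it was 11.9, 19.7 and 13.5. The log2 differences of Dcn in GelMA-PSS were 0.39 from GelMA and 0.35 from TCP. With the correction for transcript length and GC content given below they were -0.01 and 0.03. In bulk RNA, fewer cells of a type and less RNA per cell cannot be told apart.

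The repeat that defines the family differs between the classes that were abundant here. In the GENCODE coding sequences the longest unbroken run of triplets that begin with a glycine codon was 216 to 344 triplets in the 11 fibrillar chains and 39 to 66 in the 6 type IV chains. Coding stretches of the most abundant fibrillar and the most abundant type IV chain are shown so that the repeat can be read, with glycine codons in capitals. The Col3a1 stretch, from the start of its run of 344 triplets, lies on the plus strand of GRCm38 at chr1:45323762-45325395, across 2 coding exons. The Col4a1 stretch, across 1 of the interruptions that separate its 16 runs, lies on the minus strand at chr8:11241188-11242790, across 3 coding exons.
Col3a1: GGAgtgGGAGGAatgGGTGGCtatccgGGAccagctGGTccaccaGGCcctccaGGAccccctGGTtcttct
Col4a1: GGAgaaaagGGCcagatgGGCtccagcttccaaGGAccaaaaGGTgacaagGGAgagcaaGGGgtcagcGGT
In Col3a1 a glycine codon opens each triplet throughout, whereas in Col4a1 the spacing shifts once.

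Expression was broad in some classes and nearly absent in others. All 11 fibrillar chains and all 4 transmembrane chains reached a CPM of 1 in at least 1 library, as did 3 of 6 type IV chains, 3 of 6 beaded filament chains, 2 of 3 network chains, 3 of 9 FACIT chains, 1 of 2 multiplexins and the anchoring fibril chain Col7a1. Neither Col26a1 nor Col28a1 did. By library, 26 chain genes reached a CPM of 1 in TCP, 28 in GelMA and 24 in GelMA-PSS. The chains nearest to this limit were Col11a1 at 1.00 and Col10a1 at 1.01 in GelMA, just inside it, and Col20a1 at 0.98 and Col4a4 at 0.94 in GelMA, just outside.

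**Figure D1:**
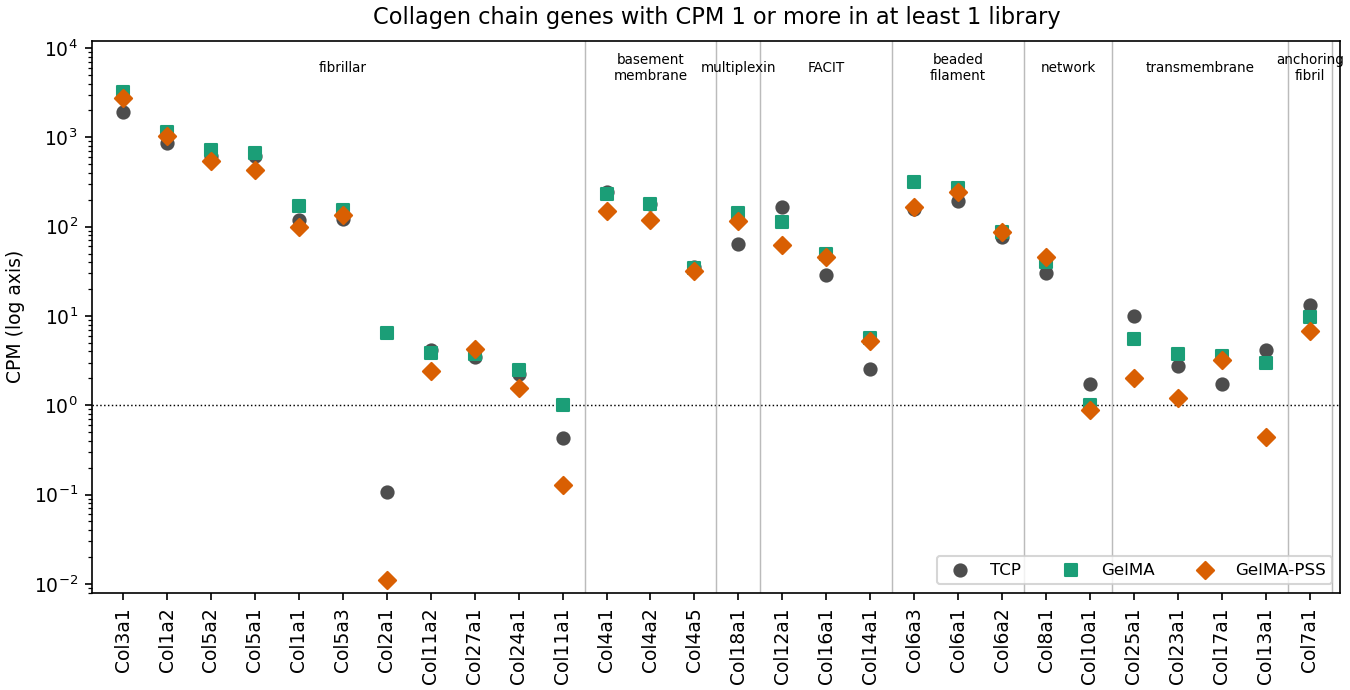
CPM on a log axis of the 28 collagen chain genes that reached a CPM of 1 in at least 1 library, grouped by class, with 1 point per library (TCP circles, GelMA squares, GelMA-PSS diamonds) and the dotted line at a CPM of 1. The levels run from 3221 for Col3a1 to 0.01 for Col2a1 in GelMA-PSS, and the 3 libraries lie farthest apart for Col2a1, Col13a1, Col11a1 and Col25a1.

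Collagen chain genes together took 0.557% of counts in TCP, 0.794% in GelMA and 0.572% in GelMA-PSS. Their summed CPM was 5482, 7608 and 6070 (6069.8), so the total was 1.39-fold higher in GelMA than in TCP and 1.11-fold higher in GelMA-PSS than in TCP. Without Col3a1 the sum was 3576, 4387 and 3349, and the ratio of GelMA-PSS to TCP was 0.937. Leaving out this 1 gene thus turned the direction of GelMA-PSS against TCP. These sums are not corrected for transcript length and GC content. With that correction, described with the medians of all chains, the median log2 difference of the 28 expressed chains from TCP moved from -0.16 to 0.19.

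Levels of different genes were compared per kilobase of transcript. On this scale the fibrillar class made up 78.2% of collagen transcripts in TCP, 80.7% in GelMA and 81.7% in GelMA-PSS. Col3a1, the homotrimeric fibril collagen of compliant tissues and of skeletal muscle connective tissue, alone made up 37.5%, 45.0% and 46.6%. Col1a2, the second chain of type I collagen, followed with 17.7%, 16.6% and 18.6%. Col5a2 and Col5a1, the main chains of type V collagen, which starts fibril formation and sets fibril diameter, took lower shares in GelMA-PSS than in TCP, with 10.3%, 8.51% and 7.87% for Col5a2 and 8.05%, 6.21% and 4.86% for Col5a1, while Col5a3 held 2.17%, 1.95% and 2.10%. With Col6a1, the genes Col3a1, Col1a2, Col5a2 and Col5a1 held 78.8% in TCP, 81.5% in GelMA and 83.5% in GelMA-PSS. These shares are not corrected for the dependence on transcript length between libraries. Col5a1, at 8406 bases, and Col5a2, at 6625, are longer than Col3a1, at 5564, and Col1a2, at 5348.

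**Figure D2:**
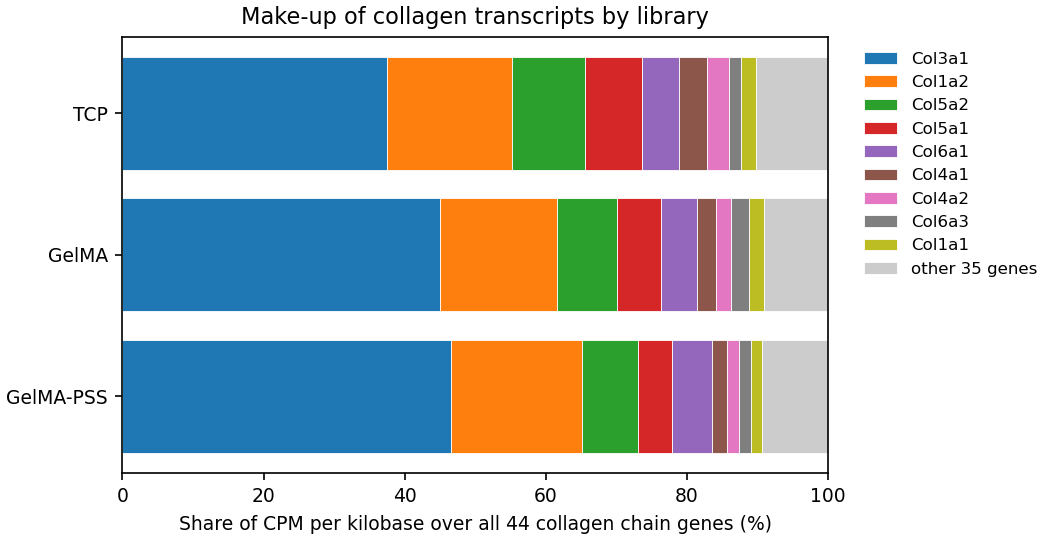
Share of summed CPM per kilobase over all 44 collagen chain genes, in percent, with 1 bar per library and 1 colour per gene for the 9 genes with the highest shares. Col3a1 holds 37.5% of the TCP bar and 46.6% of the GelMA-PSS bar, and the 35 remaining genes share the grey end of each bar.

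As measured, GelMA held the highest level of the major fibrillar chains. The Col3a1 CPM was 1907 in TCP, 3221 in GelMA and 2721 in GelMA-PSS. The Col1a2 CPM was 865, 1146 and 1041 in the same order. Both genes were highest in GelMA and lowest in TCP, with log2 differences of GelMA from TCP of 0.76 and 0.41. All log2 differences here are of CPM + 1, and a gene past 2-fold has a log2 difference beyond 1. With a correction for transcript length and GC content, described with the medians of all chains, GelMA-PSS lay above GelMA by 0.13 for Col3a1 and 0.25 for Col1a2, so the order of the hydrogels turned. Col1a1, the chain present in 2 copies beside 1 Col1a2 chain in the common type I trimer, had a CPM of 119.7, 168 and 99.0. It was lowest in GelMA-PSS, by a log2 difference of -0.76 from GelMA and -0.27 from TCP, which became -0.26 and 0.11 with the correction.

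Both major type V chains had their lowest level in GelMA-PSS, whereas Col5a3 did not. Col5a1 had a CPM of 618 in TCP, 671 in GelMA and 428 in GelMA-PSS. Col5a2 had 624, 726 and 547. Corrected, the differences of GelMA-PSS from GelMA and TCP were 0.11 and 0.03 for Col5a1 and 0.06 and 0.16 for Col5a2, so neither direction held. Col5a3, a chain of a rarer type V trimer, had 121, 154 and 135, with GelMA-PSS between the others. The minor fibrillar chains Col11a2, Col24a1 and Col27a1 ranged from a CPM of 1.56 to 4.29. Among the 28 expressed chains, Col27a1 was 1 of the 2 with their highest level in GelMA-PSS, at 3.50, 3.73 and 4.29. Its counting interval in GelMA overlapped those of both other libraries. The ratio of GelMA-PSS to GelMA was 1.15 (interval 1.01 to 1.31) and that to TCP was 1.23 (1.09 to 1.38), both intervals above 1. Corrected log2 differences were 0.87 from GelMA and 0.76 from TCP.

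Chains that enter 1 trimer were not present in the proportions of that trimer. The Col1a1 level per kilobase was 0.125 of the Col1a2 level in TCP (interval 0.123 to 0.127), 0.132 in GelMA (0.130 to 0.135) and 0.0857 in GelMA-PSS (0.0844 to 0.0870). The heterotrimer holds 2 Col1a1 chains for 1 Col1a2 chain, so the mRNA ratio lay on the other side of 1 in all 3 libraries. Col5a1 to Col5a2 was 0.780, 0.729 and 0.617, and Col4a1 to Col4a2 was 1.32, 1.26 and 1.23, both lowest in GelMA-PSS. Col6a1 to Col6a2 was 2.46, 3.01 and 2.70, or 3.06, 3.75 and 3.36 with the longest transcript of each gene. Col6a3 to Col6a1 was 0.329, 0.475 and 0.280. These ratios rest on 1 transcript length per gene, and on counts along transcripts whose coverage was not analysed here. They are not corrected for the dependence on length between libraries. Corrected, GelMA-PSS differed from GelMA by 0.11 for Col5a1 and 0.06 for Col5a2, so the fall of that ratio turned. For Col6a3 and Col6a1 the values were -0.04 and 0.07, a smaller gap. Col1a1 stayed lower relative to Col1a2, at -0.26 and 0.25.

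As measured, the 3 expressed type IV chains of the basement membrane were lowest in GelMA-PSS. Col4a1 had a CPM of 243 in TCP, 231 in GelMA and 149 in GelMA-PSS, and Col4a2, its partner in the widespread basement membrane trimer, had 179.5, 178 and 118. TCP and GelMA lay within the counting intervals of each other for Col4a2, and GelMA-PSS lay below both. The log2 differences of GelMA-PSS were -0.63 from GelMA and -0.70 from TCP for Col4a1, and -0.59 and -0.60 for Col4a2, none past 2-fold. With the correction they were -0.06 and -0.28 for Col4a1 and -0.00077 and -0.14 for Col4a2. Col4a5, a chain of a second type IV trimer, had 35.3, 34.4 and 32.2, and its corrected differences were 0.38 and 0.22, with the direction turned. Of the chains with which Col4a5 assembles, Col4a3 and Col4a4 stayed under a CPM of 1, as did Col4a6.

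The 6 type IV genes lie in 3 pairs with the 2 genes of a pair running away from each other from a shared region, which is a known arrangement of this family. Col4a1 and Col4a2 overlap by 22 bases at their GENCODE starts on chromosome 8, Col4a4 and Col4a3 are separated by 71 bases on chromosome 1, and Col4a6 and Col4a5 by 1308 bases on the X chromosome. The overlap of the RefSeq promoter windows of Col4a1 and Col4a2 is shown because both abundant type IV genes start from it. It lies at chr8:11312777-11312854 (GRCm38.p6) and is written on the plus strand, with the letters GGGCGG, a match to the Sp1 motif, in capitals.
Col4a1 and Col4a2: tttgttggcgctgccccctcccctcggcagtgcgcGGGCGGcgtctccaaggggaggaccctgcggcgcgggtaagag
Reads in the 22 shared bases could count toward either gene only if strand was ignored, and the strand setting of the counting was not given in the sources used here.

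Col6a3 stood apart from the other beaded filament chains. Col6a1 had a CPM of 195 in TCP, 271 in GelMA and 243 in GelMA-PSS, and Col6a2 had 76.4, 86.5 and 86.5. Both were lowest in TCP. Col6a3, the long chain of the same trimer, had 158, 317 and 168 and so stood apart in GelMA, by a log2 difference of 1.00 (0.998) from TCP, just under 2-fold, and of -0.91 in GelMA-PSS against GelMA. The transcript of Col6a3 measures 10106 bases against 4100 for Col6a1 and 3949 for Col6a2, and with length and GC content corrected for, the Col6a3 differences were 0.82 for GelMA against TCP and -0.04 for GelMA-PSS against GelMA.

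Among FACIT chains Col12a1, which decorates type I fibrils and is found in muscle and tendon, had a CPM of 165 in TCP, 114 in GelMA and 62.6 in GelMA-PSS. It was past 2-fold lower in GelMA-PSS than in TCP, by a log2 difference of -1.38. With length and GC content corrected for, the difference was -0.75, under 2-fold, and the Col12a1 transcript, at 11511 bases, is the longest of the 28. Col14a1, a FACIT chain that regulates fibril growth, had 2.54, 5.69 and 5.29, and Col16a1 had 29.0, 48.9 and 45.4. Both were lowest in TCP.

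Col18a1, the basement membrane multiplexin whose end fragment is endostatin, had a CPM of 63.3 in TCP, 144 in GelMA and 117 in GelMA-PSS. It was past 2-fold higher in GelMA than in TCP, with a log2 difference of 1.17 and a CPM ratio of 2.27 (interval 2.21 to 2.33). Against TCP, GelMA-PSS was higher by 0.87 on the log2 scale, or 1.26 after the correction. Col8a1, a network chain found around vessels, had 30.2, 40.3 and 45.2 and was the other expressed chain with its highest level in GelMA-PSS. Col7a1, which forms anchoring fibrils under epithelia, had 13.4, 9.82 and 6.75, and Col10a1, the network chain of hypertrophic cartilage, had 1.73, 1.01 and 0.88. For Col7a1, at 9250 bases, the correction moved GelMA-PSS from -0.48 to 0.41 against GelMA and from -0.89 to -0.22 against TCP.

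On the scale of log2(CPM + 1) the collagen genes past 2-fold in GelMA-PSS against both GelMA and TCP were 2 transmembrane chains. On plain CPM ratios 5 chains were, these 2 with Col23a1, Col2a1 and Col11a1, against a background of 2.65% of all genes. Col2a1 and Col11a1 passed the filter only through GelMA, so it favoured a lower call against GelMA for them. Col13a1, a membrane collagen of the neuromuscular junction and of cell adhesion sites, had 507 counts in TCP, 273 in GelMA and 80 in GelMA-PSS, or a CPM of 4.16, 3.00 and 0.44. Its CPM in GelMA-PSS was 0.147 of that in GelMA (interval 0.113 to 0.189) and 0.106 of that in TCP (0.0827 to 0.134). Col25a1, a membrane collagen needed for motor innervation of muscle, had 1217, 501 and 370 counts, or a CPM of 9.99, 5.51 and 2.04. Its GelMA-PSS level was 0.370 of that in GelMA (0.323 to 0.425) and 0.204 of that in TCP (0.181 to 0.230). Both genes were highest in TCP and lowest in GelMA-PSS.

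The other transmembrane chains followed this pair in part or not at all. Col23a1 had a CPM of 2.77 in TCP, 3.72 in GelMA and 1.20 in GelMA-PSS, with a log2 difference of GelMA-PSS from GelMA of -1.10, or -0.68 after the correction. Col17a1, the hemidesmosome collagen of epithelia, had 1.71, 3.58 and 3.24 and was lowest in TCP. The log2 differences of Col13a1 after the correction were -1.37 from GelMA and -1.75 from TCP, and those of Col25a1 were -1.09 and -1.85, so both stayed past 2-fold. The Col25a1 transcript used measured 2624 bases, and the longest of that gene measures 6701. The correction used the 2624 bases and was not repeated with the longer transcript, so the corrected values of Col25a1 depend on this choice. For scale, Col4a1, at 6615 bases, moved from -0.63 to -0.06 against GelMA. The summed CPM of the myoblast and myotube markers had the same order of libraries as both chains. This order rested on Myh3, since without it the sum was 11909 (11909.5) in TCP, 10301 (10301.5) in GelMA and 10457 in GelMA-PSS. Singly, Acta1 and Ckm also had this order, whereas Myod1, Myf5, Myog, Des and Cdh15 did not. The part of these markers in the result was not tested.

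Promoter windows in RefSeq were found for 35 of the 44 chain genes, in 38 windows of 300 bases around the transcription start (GRCm38.p6). Those of Col13a1 and Col25a1 are shown because these genes were the lower calls against both controls, and those of Col3a1 and Col1a2 because these mRNAs were the most abundant. The motifs searched on both strands were the TATA box TATAAA, the NF-Y motif CCAAT, the Sp1 motif GGGCGG and the E-box CANNTG, which MyoD and its relatives bind. No motif of the 4 contains another. Capitals mark CANNTG and TATAAA in Col13a1 and Col3a1, and CCAAT and GGGCGG in Col25a1 and Col1a2. The windows are Col13a1 at chr10:61979059-61979358 on the minus strand, Col25a1 at chr3:130180595-130180894, Col3a1 at chr1:45311288-45311587 and Col1a2 at chr6:4505368-4505667, all on the plus strand.
Col13a1: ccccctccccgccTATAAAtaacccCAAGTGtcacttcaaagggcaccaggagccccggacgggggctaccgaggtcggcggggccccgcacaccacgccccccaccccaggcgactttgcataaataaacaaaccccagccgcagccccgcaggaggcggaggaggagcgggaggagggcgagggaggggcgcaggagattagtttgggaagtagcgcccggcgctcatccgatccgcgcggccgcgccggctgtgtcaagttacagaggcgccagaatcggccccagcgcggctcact
Col25a1: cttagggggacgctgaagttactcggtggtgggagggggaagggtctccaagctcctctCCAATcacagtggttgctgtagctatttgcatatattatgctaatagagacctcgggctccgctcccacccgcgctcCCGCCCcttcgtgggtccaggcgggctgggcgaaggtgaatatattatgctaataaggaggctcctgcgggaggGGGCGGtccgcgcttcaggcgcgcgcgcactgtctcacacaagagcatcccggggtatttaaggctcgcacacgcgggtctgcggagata
Col3a1: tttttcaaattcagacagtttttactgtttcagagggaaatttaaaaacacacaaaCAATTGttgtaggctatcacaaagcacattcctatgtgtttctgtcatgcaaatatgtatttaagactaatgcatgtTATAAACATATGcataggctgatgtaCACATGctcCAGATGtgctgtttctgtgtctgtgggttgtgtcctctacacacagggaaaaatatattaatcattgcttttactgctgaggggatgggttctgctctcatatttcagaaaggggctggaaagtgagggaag
Col1a2: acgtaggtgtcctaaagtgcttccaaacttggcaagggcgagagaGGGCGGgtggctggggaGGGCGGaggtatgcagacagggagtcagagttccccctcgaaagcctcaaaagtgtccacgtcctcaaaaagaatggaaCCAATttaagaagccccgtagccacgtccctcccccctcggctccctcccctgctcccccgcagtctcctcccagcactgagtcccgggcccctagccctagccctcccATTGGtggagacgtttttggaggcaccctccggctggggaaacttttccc
Col13a1 held 1 CANNTG match and Col25a1 held none, while Col3a1 held 4 and Col1a2 none. Of the 35 genes, 20 held CANNTG in at least 1 window, 22 held GGGCGG, 13 held CCAAT and 5 held TATAAA. Over all 32851 promoter windows the shares were 72.3%, 35.7%, 37.4% and 13.6%. These are letter matches, and binding was not measured.

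Col2a1 and 2 chains of type IX collagen were detected almost entirely in GelMA. Col2a1 had 13 counts in TCP, 592 in GelMA and 2 in GelMA-PSS. The ratio of GelMA to TCP was 61.0 (interval 35.4 to 115), and that of GelMA-PSS to GelMA was 0.00169 (0.000205 to 0.00615). Col9a1 and Col9a2, which cover the surface of type II fibrils in cartilage, had 77 and 22 counts in GelMA and 0 in both other libraries. Against the level of 3 counts per library, Col9a1 was at least 34.4-fold higher in GelMA than in TCP and at least 51.2-fold higher than in GelMA-PSS, and Col9a2 at least 9.83-fold and 14.6-fold. Both stayed under a CPM of 1 even in GelMA.

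Other cartilage-associated genes were divided. Col11a1, a partner of type II collagen in cartilage fibrils, had 53, 91 and 23 counts, and Col9a3, the remaining type IX chain, had 16, 41 and 59. Col11a2 had a CPM of 4.16, 3.86 and 2.42 and was not highest in GelMA. Acan, the cartilage proteoglycan, had 4, 43 and 4 counts and Matn1, a cartilage matrix protein, had 1, 21 and 0. Lect1, a cartilage protein named here after its values were seen, had 0, 22 and 0. Sox9, a transcription factor that cartilage requires, had 4805, 4269 and 6418 counts, or a CPM of 39.5, 47.0 and 35.4, and so was well expressed in all 3 libraries. Over all genes, 8 had more than 20 counts in GelMA and 3 or fewer in each of the other libraries. Of these 8, 2 were collagens, where 44 of all 23238 symbols are. The same rule found 4 genes in TCP and 31 in GelMA-PSS, none of them a collagen. This rule uses counts without scaling, and total counts were 87071144 in GelMA against 192171443 in GelMA-PSS, so these numbers of genes are not comparable between libraries. What brought the counts of the cartilage genes into the GelMA library was not tested.

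**Figure D3:**
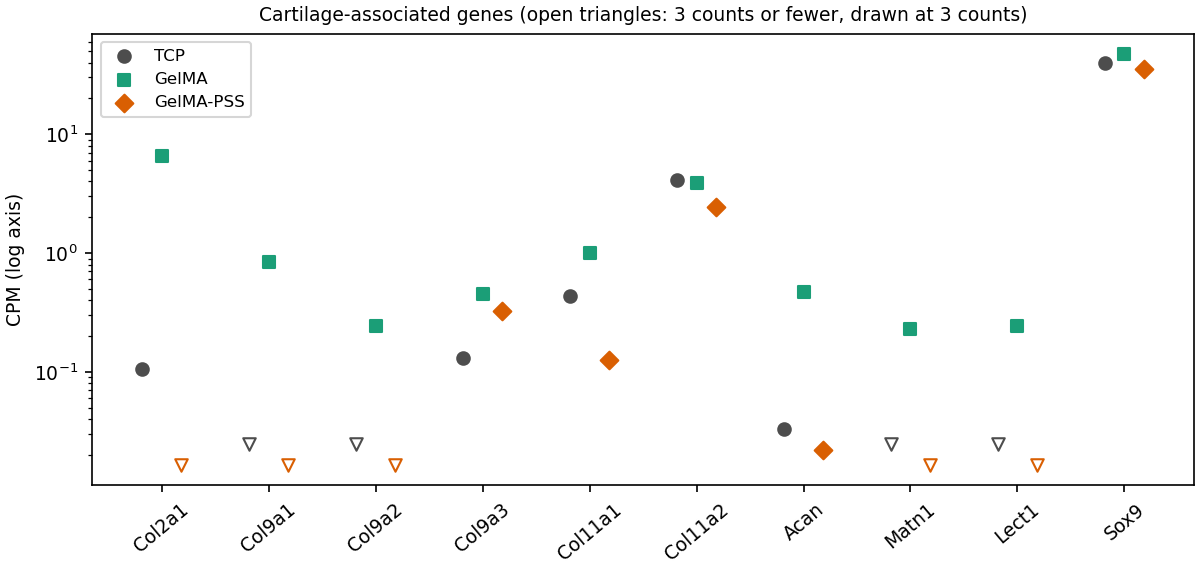
CPM on a log axis of 6 cartilage collagen chains and 4 further cartilage-associated genes in TCP (circles), GelMA (squares) and GelMA-PSS (diamonds), with open triangles at the level of 3 counts for values of 3 counts or fewer. Col2a1, Col9a1, Col9a2, Acan, Matn1 and Lect1 stand highest in GelMA and near or under the level of 3 counts elsewhere, except Col2a1 with 13 counts in TCP, whereas Sox9 and Col11a2 lie close together in all 3.

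Across the 28 expressed chains, 17 had their highest level in GelMA, against a background of 25.7% of 13169 genes tested. Among these 17, Col2a1 and Col11a1 reached a CPM of 1 only in GelMA, so the filter itself fixed GelMA as their highest library. The calls of Col2a1 and Col11a1 given next share this limit. Against GelMA, 0 chains were past 2-fold higher in GelMA-PSS, where 1.77% of all genes were, and 4 were lower (Col2a1, Col13a1, Col23a1 and Col25a1), where 2.33% were. Against TCP, 0 were higher in GelMA-PSS, with a background of 3.72%, and 3 were lower (Col12a1, Col13a1 and Col25a1), with a background of 3.13%. GelMA had 2 chains past 2-fold higher than TCP (Col2a1 and Col18a1), against 0.706% of all genes, and 0 lower, against 0.296%. On plain CPM ratios 6 were higher, Col11a1, Col14a1, Col17a1 and Col6a3 in addition, against 1.77% of all genes. Past 2-fold against both controls, GelMA-PSS had 0 higher chains, with a background of 1.37%, and 2 lower, with a background of 1.16%. At any size, 2 chains were above both controls, where 45.3% of all genes were, and 16 were below both, where 39.3% were. On the corrected scale given next, 15 chains were above both, where 40.8% of all genes were, and 6 below both (Col4a1, Col4a2, Col10a1, Col13a1, Col23a1 and Col25a1), where 40.7% were.

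The median log2 difference of the 28 chains was -0.43 for GelMA-PSS against GelMA, -0.16 for GelMA-PSS against TCP and 0.27 for GelMA against TCP, while the medians of all genes were 0.03, 0.04 and -0.01. The log2 difference varied with transcript length. As a description over 13053 genes, which all share the same 3 libraries, Spearman's rho between the log2 difference and length was -0.66, -0.50 and 0.21 for these comparisons, and the longest decile of genes had a median of -0.62 in GelMA-PSS against GelMA where the shortest decile had 0.58. Among the 28 chains alone, rho was -0.15, -0.14 and -0.03. The expressed chains had a median transcript of 5794 bases against 2911 for all genes. Corrected for length and GC content, the medians of the chains were 0.08, 0.19 and 0.21. Both medians of GelMA-PSS thus changed sign, whereas that of GelMA against TCP stayed above 0.

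On the corrected scale 5 of 28 chains had their highest level in GelMA, Col2a1 and Col11a1 among them, against 23.3% of all genes. Past 2-fold, the corrected comparison of GelMA-PSS with GelMA kept Col2a1, Col13a1 and Col25a1 as lower, where 1.21% of all genes were. That of GelMA-PSS with TCP had Col13a1 and Col25a1 lower, where 2.41% of all genes were, and Col14a1 and Col18a1 higher, where 2.01% were. Whether the dependence on length arose in the RNA, the library or the counting was not tested.

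**Figure D4:**
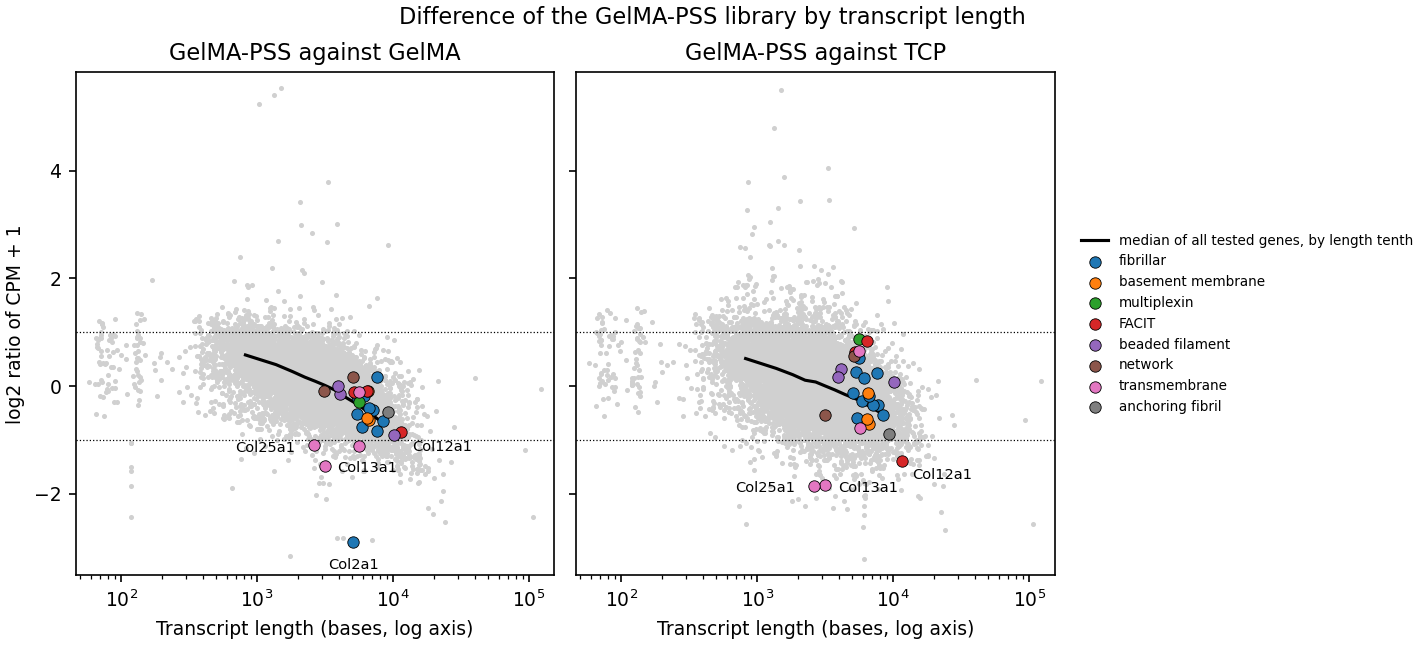
Log2 difference of CPM + 1 of GelMA-PSS from GelMA (left) and from TCP (right) against transcript length on a log axis, with all tested genes in grey, their median by length decile as a black line, the 28 collagen chains coloured by class and dotted lines at 2-fold. Most chains lie inside the grey cloud at its long end, where the median is -0.62 on the left and -0.47 on the right. Col13a1 (3162 bases) and Col25a1 (2624 bases) lie near the median length of all genes, 2911 bases, and under the lower 2-fold line in both panels. Col2a1 is the lowest chain on the left.

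**Figure D5:**
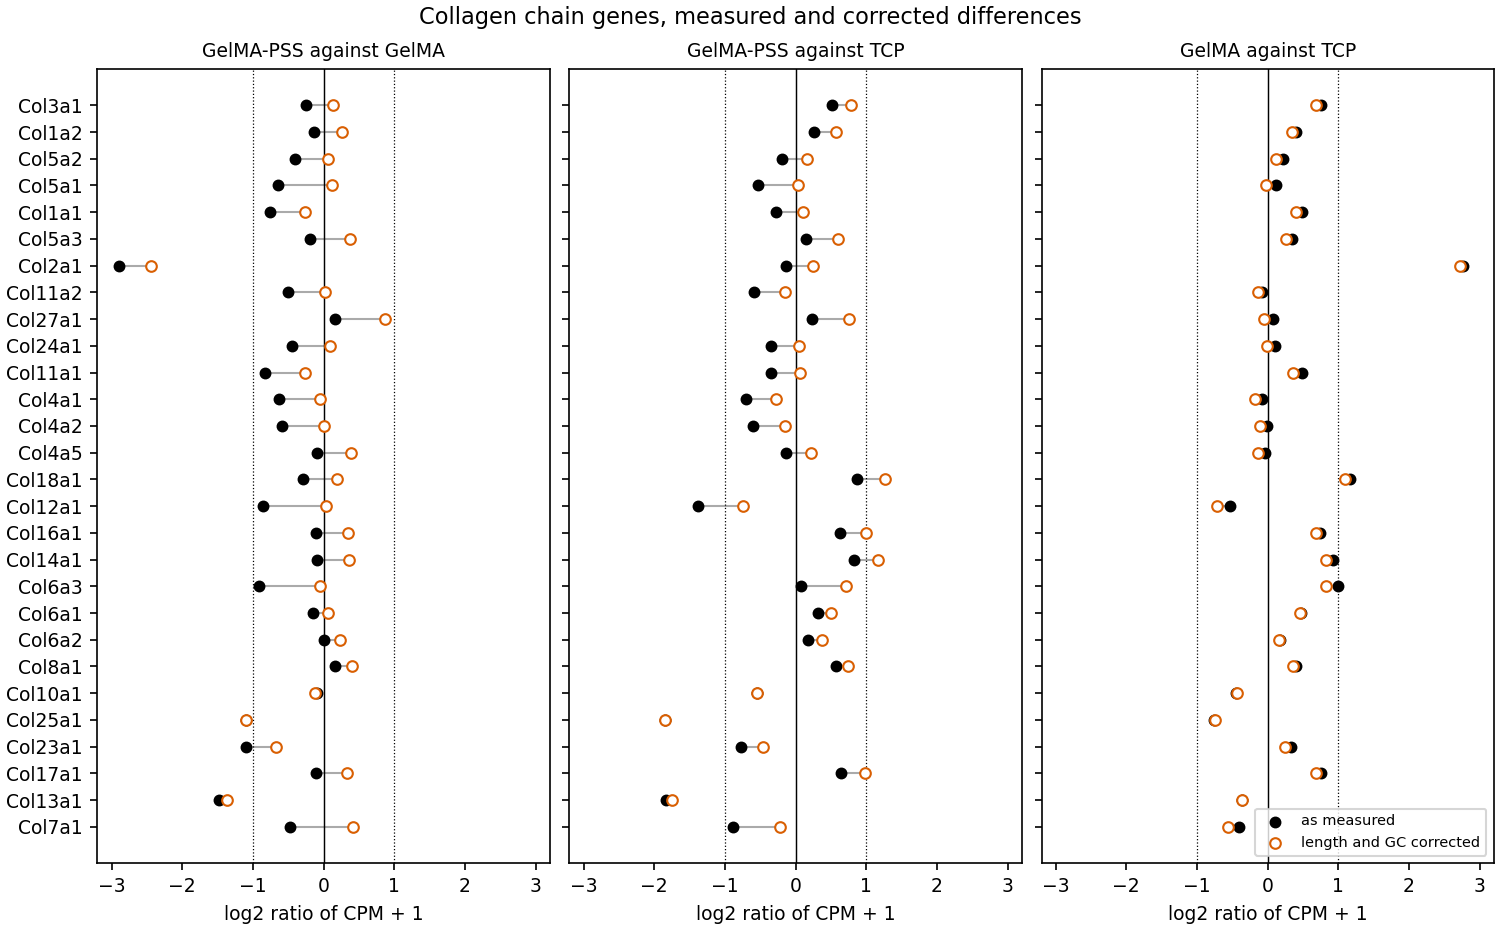
Log2 differences of CPM + 1 of the 28 chains in the 3 comparisons as measured (black) and after correction for length and GC content (open), with dotted lines at 2-fold. The correction moved the medians of both comparisons of GelMA-PSS to 0.08 and 0.19. Col13a1 and Col25a1 stayed past 2-fold in both, with the length of Col25a1 taken as 2624 bases.

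The enzymes that modify and fold collagen were mostly higher in GelMA-PSS. Of 18 expressed genes of 19 listed, 12 were above both controls (45.3% over all genes) and 3 below both (39.3%), none past 2-fold, with medians of 0.16 against GelMA and 0.32 against TCP. Serpinh1, the collagen chaperone Hsp47, had a CPM of 592 in TCP, 642 in GelMA and 836 in GelMA-PSS. The prolyl hydroxylase subunits P4ha1 and P4hb had 250.3, 295 and 342 and 520.3, 591 and 669.9. Plod1 and Plod2, the lysyl hydroxylases, had 122, 143 and 153 and 96.6, 120.1 and 139, and Crtap, part of the prolyl 3-hydroxylation complex, had 47.9, 53.8 and 67.1. All of these were highest in GelMA-PSS and lowest in TCP.

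Genes of secretion and propeptide processing held 10 expressed of 14, with medians of -0.24 and -0.21 for GelMA-PSS against GelMA and TCP. Bmp1, the protease that removes the C-propeptide, had a CPM of 222, 238 and 206, and Pcolce, its enhancer, had 363, 368 and 428. Corrected, the differences of GelMA-PSS from GelMA and TCP were -0.03 and 0.04 for Bmp1 and -0.01 and 0.06 for Pcolce. Of 10 crosslinking and assembly genes 9 were expressed, with medians of 0.05 and 0.24. Loxl2, a lysyl oxidase, had 26.8, 54.8 and 79.7 and was past 2-fold higher than TCP in both GelMA-PSS, by 1.54 on the log2 scale, and GelMA, by 1.01 (0.94 after the correction). Lox had 209.6, 286 and 248, and Sparc, a collagen-binding glycoprotein, had 1781, 1683 and 2228. The same corrected differences were -0.07 and 0.34 for Lox and 0.07 and 0.06 for Sparc, where Sparc had 0.40 and 0.32 as measured.

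Of 12 collagen receptors 8 were expressed, and 7 of these were below both controls in GelMA-PSS, or 5 with the correction, against 39.3% and 40.7% over all genes. Itga10, the integrin chain that pairs with Itgb1 to bind collagen, had a CPM of 41.4 in TCP, 24.5 in GelMA and 14.9 in GelMA-PSS, past 2-fold lower than TCP by a log2 difference of -1.42, or -1.17 after the correction. Itgb1 itself had 1216, 1128 and 1113. Of the other collagen-binding integrin chains, Itga11 had 2.98, 2.02 and 1.83, and Itga1 and Itga2 stayed under a CPM of 1. Ddr1, Ddr2 and Mrc2, 2 receptor kinases and an uptake receptor, had 186, 182 and 152, 91.0, 124 and 70.9, and 135, 179.6 and 104. Corrected, the differences of GelMA-PSS from GelMA and TCP were 0.24 and -0.23 for Itga11 and -0.04 and -0.11 for Ddr1. They were -0.19 and 0.07 for Ddr2 and -0.30 and -0.0035 for Mrc2. Of 12 upstream regulators, all expressed, 10 were below both controls as measured and 9 with the correction, against the same shares over all genes, with medians of -0.36 against GelMA and -0.50 against TCP. None was past 2-fold as measured, and with the correction Ctgf, a matricellular protein, reached -1.001 against TCP, just past it. Medians of these lists corrected for length and GC content were 0.14 and 0.34 for modification and folding, -0.09 and -0.0036 for secretion and processing, 0.07 and 0.23 for crosslinking, -0.12 and -0.11 for receptors and -0.21 and -0.37 for regulators.

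The 16 chain genes under a CPM of 1 in every library were Col4a3, Col4a4, Col4a6, Col6a4, Col6a5, Col6a6, Col8a2, Col9a1, Col9a2, Col9a3, Col15a1, Col19a1, Col20a1, Col22a1, Col26a1 and Col28a1. Their highest CPM was 0.98, in Col20a1, and 4 of the 44 genes had 0 counts in at least 1 library (Col6a5, Col6a6, Col9a1 and Col9a2). Col6a5 had 0 counts in TCP and GelMA and 1 in GelMA-PSS, the least of all chains. Of these 16 genes, Col4a3, Col6a4, Col6a5 and Col28a1 had their highest CPM in GelMA-PSS, Col6a5 on 1 count alone. The counts were 16, 12 and 33 for Col4a3, 4, 13 and 42 for Col6a4 and 33, 48 and 146 for Col28a1. The ratio of GelMA-PSS to GelMA had an interval above 1 only for Col28a1 (1.09 to 2.16). It was 0.694 to 2.93 for Col4a3 and 0.853 to 3.29 for Col6a4.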

How the data were processed

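The RNA-seq data hold 1 library of c2c12 cells for each of TCP, GelMA and GelMA-PSS, assigned from the sample labels. Values deposited by the authors are raw counts for each gene symbol. The study's methods name a TruSeq kit and strand-specific paired-end reads, whereas the labels name a SMARTER kit. The submitters' processing notes name TopHat, edgeR, hg19 and mm10 with no role, and the counting tool and annotation are not given in the sources used here. Whether both mates were counted is not known, so the intervals may be too narrow.

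Of 23282 rows, 35 symbols were given more than once and were summed. Counts were scaled to CPM with TMM factors of 1.02, 1.04 and 0.943 for TCP, GelMA and GelMA-PSS (edgeR 4.0.16 in R 4.3.3, numpy 2.4.6, pandas 2.3.3). Genes with a CPM of 1 in at least 1 library entered the ratios of log2(CPM + 1), which understate changes of low genes. Intervals are Wilson intervals for levels and exact binomial intervals for ratios, at 95% (scipy 1.17.1). Lengths, exons and coding sequences came from GENCODE vM21 (GRCm38), matched directly for 22197 symbols and through older symbols for 649, with 392 unmatched. The correction subtracted successive loess fits on length and GC content with a span of 0.3 (statsmodels 0.14.6). Glycine repeats were runs of at least 5 triplets. Every chain with a CPM of 1 was described, with all other chains named, and from each pathway list the members past 2-fold and fixed anchors. Members and lists were chosen with earlier results of these data known. The procedure was tested on simulated data. Alternatives covered pseudocount, filter, scaling, fold threshold, length correction and transcript choice, and, chosen after seeing the data, plain CPM ratios, corrected orders and marker sums without Myh3 or Dcn.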

Additional observations from a re-analysis of the deposited data

How the results depend on the processing

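With a pseudocount of 0.1 the median log2 difference of the chains for GelMA-PSS against TCP was -0.23, and chains past 2-fold numbered 1 higher and 5 lower for GelMA-PSS against TCP, 6 higher for GelMA against TCP (Col2a1, Col18a1, Col11a1, Col14a1, Col17a1 and Col6a3) and 4 lower in GelMA-PSS against both (Col13a1, Col25a1, Col11a1 and Col23a1). With a CPM of 1 required in all 3 libraries, which left 24 chains and removed Col13a1 and Col2a1, the medians of GelMA-PSS were -0.35 against GelMA and -0.023 against TCP, and the counts were 2 lower against GelMA, 1 higher for GelMA against TCP and 1 lower against both. With no filter, 43 chains gave medians of -0.27, -0.057 and, for GelMA against TCP, 0.18. Without TMM factors, 29 chains gave medians of -0.55 and -0.30. With the length and GC correction the medians of GelMA-PSS were 0.075 and 0.19, with the sign changed, and 2 chains were higher than TCP, and at any size 15 chains were above both controls and 6 below both. On plain CPM ratios, 5 chains were past 2-fold lower against both. Col2a1 and Col11a1, called at the smaller pseudocount and on plain ratios, passed the filter only through GelMA. At a threshold of 1.5-fold the counts were 11 lower against GelMA, 4 higher and 8 lower against TCP, 7 higher and 1 lower for GelMA against TCP, and 6 lower against both. For the pseudocount of 0.1, the filter in all 3 libraries and the 1.5-fold threshold, shares over all genes are not given. The counts of chains at these settings therefore have no background to be read against. Scaling by median-of-ratios size factors changed no call among 84 gene comparisons, the correction changed 4 (Col12a1 and Col23a1 lost, Col14a1 and Col18a1 gained), the lack of TMM factors 2 and the smaller pseudocount 8. With the longest transcript of each gene the shares of Col11a2, Col25a1 and Col6a2 moved beyond their counting intervals. The length and GC correction was not repeated with the longest transcripts. No paired analysis was possible because each substrate has 1 library, and no library could be left out for the same reason. A cause beyond fewer genes tested was not tested.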
